A study of Mus musculus with 10 samples.

Results

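Gluconeogenesis and glycogen genes were examined in the liver of female mouse fetuses at E18.5, shortly before birth, in 5 fetuses whose paternally inherited allele of the microRNA gene Mir483 had been deleted (Mir483Pat-KO) and in 5 WT littermates. The list was fixed by name and holds 10 of the 55401 genes of the table: the gluconeogenesis genes Pcx, Pck1, Fbp1, G6pc and Slc37a4, the glycogen genes Gys2, Pygl, Ppp1r3b and Ppp1r3c, and the coactivator gene Ppargc1a. All 10 were found by their Ensembl identifiers and all 10 passed the filter on low counts. The deletion was made by Cre in C57BL/6N embryonic stem cells, 2 clones of which went into blastocysts, and the colony was kept on C57BL/6J, so both groups share that background. It is present in every tissue of the fetus, and which clone these fetuses descend from is not given in the sources used here. Each library came from the liver of 1 fetus, and polyA RNA was sequenced.

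Gluconeogenesis builds glucose from lactate, amino acids and glycerol, and in the fetus it is largely idle because glucose arrives through the placenta. Pyruvate carboxylase and phosphoenolpyruvate carboxykinase carry carbon past the irreversible last step of glycolysis, fructose-bisphosphatase and glucose-6-phosphatase bypass earlier ones, and glucagon, cAMP and glucocorticoids raise the pathway around birth while insulin holds it down. The liver stores glycogen before birth and breaks it down after birth, when the placental supply of glucose ends.

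Mir483 lies in Igf2 and gives a pair of mature microRNAs, which are shown because the deletion removes them. Their sequences and coordinates are from RefSeq (GRCm38.p6), on the minus strand, at chr7:142654932-142654952 for miR-483-3p and chr7:142654968-142654989 for miR-483-5p. Capitals mark the seed, bases 2 to 8.
miR-483-3p: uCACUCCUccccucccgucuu
miR-483-5p: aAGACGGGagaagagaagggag
The 7 letters complementary to the seed of miR-483-3p (AGGAGTG) occurred in the longest annotated 3′ UTR of 1 of the 10 genes, Ppp1r3b, and those for miR-483-5p (CCCGTCT) in none. Over 21130 genes with a 3′ UTR, 11.7% held the former and 3% the latter. The match in Ppp1r3b starts at position 173 of a 3′ UTR of 3276 bases and is printed here with its flanks, capitals marking the match.
Ppp1r3b: tcttgctcagAGGAGTGgagcggtgct
A match of this kind is a description and not a measured binding site.

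Total counts per library ranged from 10831350 to 14765880. Mir483 itself had 11, 10, 22, 21 and 12 counts in WT replicates 1 to 5 and 0 counts in each Mir483Pat-KO library, where a count of 0 allows up to 3, counting error only. Identification numbers in the labels fell into a lower range with 4 WT libraries and 2 of Mir483Pat-KO and an upper range with 1 and 3, and what a range stands for is not stated. Hepatocyte markers made up 24.6% ± 0.909 of a WT library and 22.7% ± 1.02 of a Mir483Pat-KO library (mean ± SD of 5 libraries each, p = 0.0317 by a two-sided exact permutation test). The haemoglobin genes took 1.33% ± 0.168 and 1.88% ± 0.342 (p = 0.0159, same exact test). In the lower range alone the differences were −0.523 and 0.166 percentage points (exact p = 0.4 and 0.267), and the hepatocyte difference had an exact p of 0.0556 to 0.0635 without WT replicate 1, 2 or 5 or Mir483Pat-KO replicate 4 or 5. In such bulk samples fewer hepatocytes and less RNA per hepatocyte cannot be told apart.

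Values are given in CPM, counts per 1000000 counts of a library, scaled by the trimmed mean of M-values (TMM). Differences were tested with edgeR's quasi-likelihood F-test over 14098 genes, and a gene passed at a Benjamini-Hochberg adjusted p under 0.05. Fold changes are log2 values, Mir483Pat-KO over WT, with their standard error.

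The genes differed widely in their WT level. Per kb of exonic length, Fbp1 stood at 484.6 ± 39.8 CPM, Pcx at 184 ± 17.6, Pygl at 87.3 ± 6.48, Gys2 at 63.6 ± 4.59 and Slc37a4 at 54.9 ± 3.50 (CPM per kb, SD, n = 5), with no overlap between neighbours in this order. Ppp1r3b (37.9 ± 3.63), G6pc (35.6 ± 6.09) and Ppp1r3c (30.5 ± 5.33) followed with overlapping ranges between neighbours. Pck1 (4.09 ± 1.17) and Ppargc1a (3.77 ± 1.101) were lowest and overlapped, so that the level of Pck1 per kb was far under that of the other gluconeogenesis enzymes. The table shows liver as the source: the 12 hepatocyte markers summed to 212214 to 264824 CPM, whereas 8 kidney markers, of the other organ with strong gluconeogenesis, summed to 0.468 to 4.94 CPM.

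Between the genotypes, Pcx and Slc37a4 fell in Mir483Pat-KO, by 18.3% each. No gene of the 10 rose. The glycogen synthase gene Gys2 had non-overlapping groups but did not pass. Pck1, G6pc and Ppp1r3c had 1 Mir483Pat-KO library above all others. The difference was below 0 for 7 genes and above 0 for 3, and over all genes tested it was below 0 for 6924 and above 0 for 7174.

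**Figure D1:**
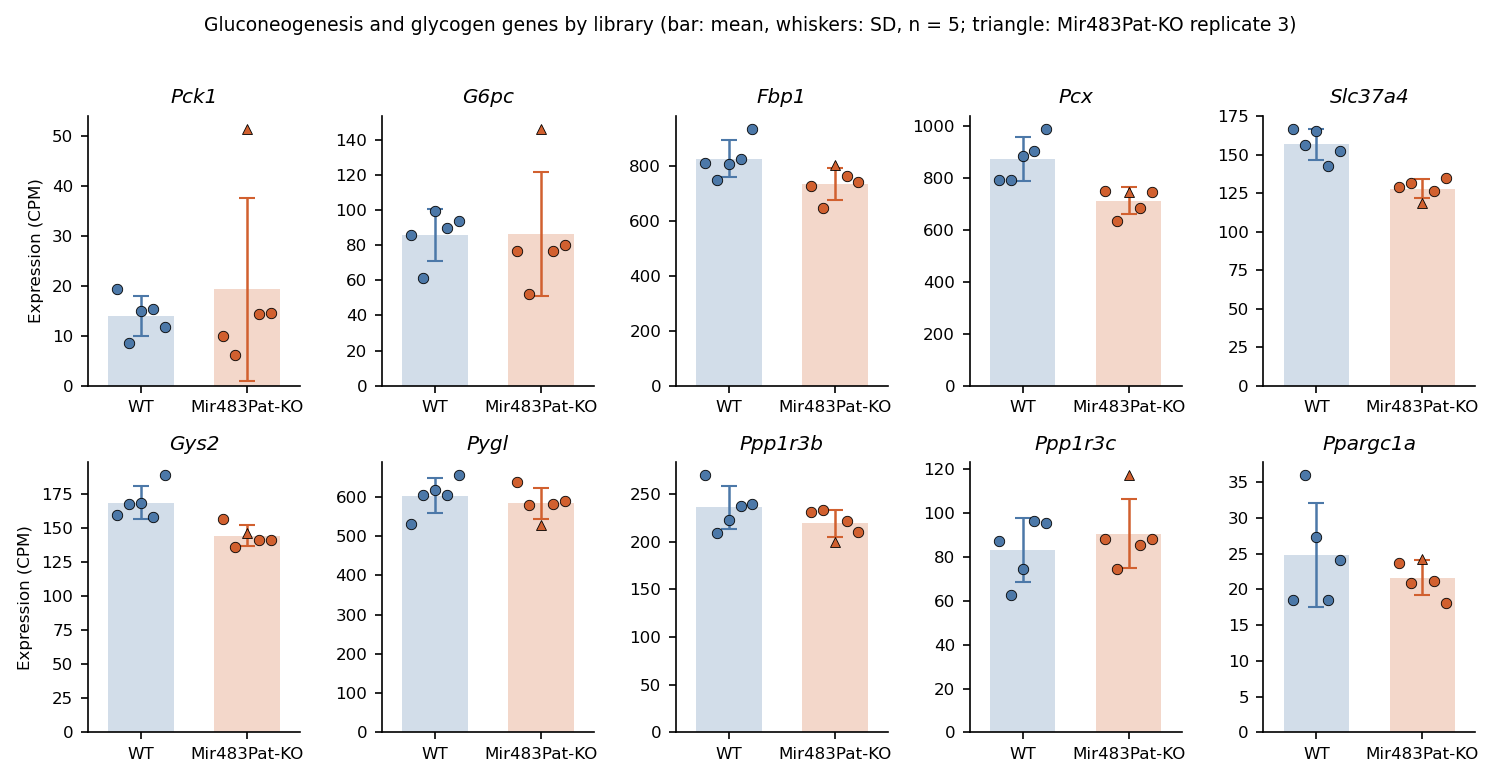
Expression (CPM, linear axes from 0) of the 10 genes in WT (blue) and Mir483Pat-KO (orange), with 1 point per library, the mean as a bar and the SD as whiskers (n = 5 per group). The groups do not overlap for Pcx, Slc37a4 and Gys2, and Mir483Pat-KO replicate 3 (triangle) is the highest library for Pck1, G6pc and Ppp1r3c.

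Pcx (ENSMUSG00000024892, chr19:4510472-4621752, plus strand, GRCm38) encodes pyruvate carboxylase, the mitochondrial enzyme that turns pyruvate into oxaloacetate. Its WT libraries had 793, 791, 885, 904 and 990 CPM for replicates 1 to 5, and its Mir483Pat-KO libraries 751, 636, 745, 686 and 747 CPM. Every Mir483Pat-KO library lay below every WT library. The log2 fold change was −0.29, standard error 0.0786 (95% confidence interval −0.46 to −0.13, edgeR adjusted p = 0.0426). The adjusted p was close to the threshold, and Pcx no longer passed without WT replicate 3, 4 or 5 or Mir483Pat-KO replicate 2, 3, 4 or 5 (edgeR adjusted p = 0.0563 to 0.104 in those fits), while its fitted value stayed between −0.33 and −0.24 with any 1 library left out. With offsets for GC content and length it was at −0.18 and did not pass (edgeR adjusted p = 0.120).

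Slc37a4 (ENSMUSG00000032114, chr9:44396852-44402968, plus strand) encodes the transporter that brings glucose 6-phosphate into the endoplasmic reticulum, where glucose-6-phosphatase acts on it. WT libraries had 167, 156, 166, 143 and 153 CPM and Mir483Pat-KO libraries 129, 131, 119, 126 and 135 CPM, again without overlap. The fitted difference of Slc37a4 was −0.29 on the log2 scale, standard error 0.0656 (interval −0.43 to −0.15, edgeR adjusted p = 0.0194). It passed without any single library but not with offsets for GC content and length (−0.23, edgeR adjusted p = 0.0573).

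In the lower range of identification numbers alone, Pcx and Slc37a4 were each at −0.28, with edgeR adjusted p = 0.249 and 0.205. Only 2 Mir483Pat-KO libraries enter that fit, and the upper range, with 1 WT library, gave no value. Neither passed when libraries were scaled to the hepatocyte markers, where Pcx was at −0.14 (edgeR adjusted p = 0.301) and Slc37a4 at −0.14 (edgeR adjusted p = 0.253). That scaling moved the median of all genes from 0.0042 to 0.157. It shifts all genes by about the same amount, so the distance of Pcx and Slc37a4 from that median is set by its construction. It also turned the split of all genes that passed from 389 lower and 342 higher to 176 lower and 1976 higher.

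Fbp1 (ENSMUSG00000069805, chr13:62864753-62888282, minus strand), fructose-bisphosphatase, was the most abundant of the genes per length. WT libraries had 810, 749, 806, 825 and 934 CPM and Mir483Pat-KO libraries 725, 645, 801, 760 and 739 CPM. The ranges overlapped, although 3 Mir483Pat-KO libraries were under the lowest WT library, and Fbp1 did not pass (−0.17 on the log2 scale, standard error 0.0767, edgeR adjusted p = 0.209). It was at −0.010 with scaling to the hepatocyte markers (edgeR adjusted p = 0.955), and at −0.24 with the identification number range as a covariate, where it passed (edgeR adjusted p = 0.0407).

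Pck1 (ENSMUSG00000027513, chr2:173153048-173159273, plus strand) encodes cytosolic phosphoenolpyruvate carboxykinase, a classic target of cAMP and glucocorticoids. WT libraries had 19.3, 8.63, 15.02, 15.4 and 11.8 CPM, whereas Mir483Pat-KO libraries had 9.99, 6.19, 51.5, 14.4 and 14.5 CPM. Mir483Pat-KO replicate 3 was 2.67 times the highest of the other 9 libraries, and the other 4 Mir483Pat-KO libraries averaged 11.3 CPM ± 3.99 (SD, n = 4). The log2 fold change of 0.47 (standard error 0.411, interval −0.40 to 1.34, edgeR adjusted p = 0.539) therefore took its sign from 1 library. Without replicate 3 it was −0.32 (edgeR adjusted p = 0.475). In the lower range alone, which excludes replicate 3, it was −0.85 (edgeR adjusted p = 0.219).

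G6pc (ENSMUSG00000078650, chr11:101367561-101377903, plus strand), the catalytic subunit of glucose-6-phosphatase, showed the same shape at a smaller size. WT libraries had 85.6, 61.2, 99.2, 89.6 and 93.7 CPM and Mir483Pat-KO libraries 76.7, 52.3, 146, 76.8 and 80.1 CPM. Replicate 3 was again the highest and replicate 2 the lowest of all 10. The log2 fold change was 0.01 (standard error 0.198, interval −0.41 to 0.43, edgeR adjusted p = 0.984), and −0.28 without replicate 3 (edgeR adjusted p = 0.283). G6pc thus differed from Slc37a4, its partner in the release of glucose, in the spread of its Mir483Pat-KO libraries, 35.3 CPM around a mean of 86.4 against 6.08 around 128. Most of that spread came from replicate 3, without which it was 12.9 CPM around 71.5 for G6pc and 3.51 around 130.5 for Slc37a4 (SD, n = 4). In WT, too, G6pc was the more variable, with 14.7 CPM around 85.9 against 9.99 around 157 for Slc37a4 (SD, n = 5).

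**Figure D2:**
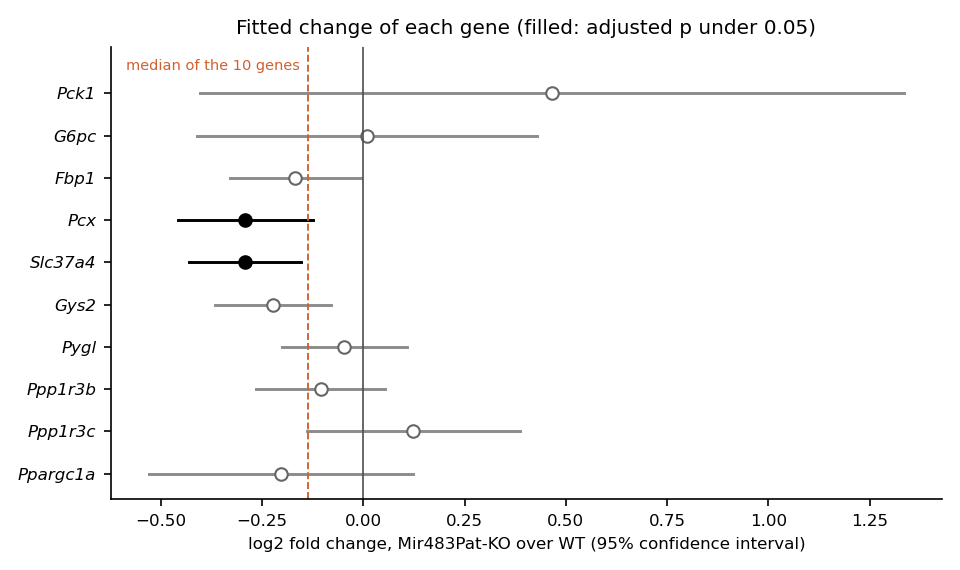
Fitted log2 fold change of Mir483Pat-KO over WT for each of the 10 genes (points) with its 95% confidence interval (lines), n = 5 per group. Filled points (Pcx and Slc37a4, both −0.29) passed an adjusted p of 0.05, the dashed line is the median of the 10 genes (−0.14), and Pck1 has the widest interval (−0.40 to 1.34).

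Of the glycogen genes, Gys2 (ENSMUSG00000030244, chr6:142422613-142473109, minus strand), the liver glycogen synthase, had 160, 168, 169, 158 and 189 CPM in WT and 157, 136, 147, 142 and 142 CPM in Mir483Pat-KO. The lowest WT and the highest Mir483Pat-KO library were 158 and 157 CPM, so the groups barely separated. Gys2 was at −0.22 on the log2 scale (standard error 0.0678, edgeR adjusted p = 0.0647). It passed without Mir483Pat-KO replicate 1 (edgeR adjusted p = 0.0438), the highest Mir483Pat-KO library for this gene, with offsets for GC content and length (−0.26, edgeR adjusted p = 0.0346) and with the DESeq2 Wald test (adjusted p = 0.0155). With scaling to the hepatocyte markers Gys2 was at −0.069 (edgeR adjusted p = 0.564), and in the lower range alone at −0.16 (edgeR adjusted p = 0.427).

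Pygl (ENSMUSG00000021069, chr12:70190811-70231488, minus strand), the liver glycogen phosphorylase that releases glucose units, had 531 to 654 CPM in WT (median 605) and 527 to 638 CPM in Mir483Pat-KO (median 581). The groups covered nearly the same range (log2 fold change −0.05, standard error 0.0727, interval −0.20 to 0.11, edgeR adjusted p = 0.752).

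Ppp1r3b and Ppp1r3c encode subunits that bring protein phosphatase 1 to glycogen, where it activates glycogen synthase. Ppp1r3b (ENSMUSG00000046794, chr8:35375739-35388139, plus strand), which holds the seed match shown above, had 270, 209, 223, 238 and 240 CPM in WT and 231, 233, 200, 221 and 210 CPM in Mir483Pat-KO. Its groups overlapped (−0.11 on the log2 scale, standard error 0.0757, edgeR adjusted p = 0.439). Ppp1r3c (ENSMUSG00000067279, chr19:36731731-36736653, minus strand) had 87.2, 62.6, 74.4, 96.3 and 95.6 CPM in WT and 88.0, 74.6, 117, 85.5 and 88.0 CPM in Mir483Pat-KO, where replicate 3 again stood highest (0.12 on the log2 scale, standard error 0.124, edgeR adjusted p = 0.595). Without replicate 3 the fitted value of Ppp1r3c was 0.0020.

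Ppargc1a (ENSMUSG00000029167, chr5:51454250-51567726, minus strand) encodes PGC-1α, a coactivator that drives Pck1 and G6pc in fasting. It had 18.47 to 35.9 CPM in WT (median 24.1) and 18.1 to 24.2 CPM in Mir483Pat-KO (median 21.1). The WT range held the Mir483Pat-KO range except for its lowest library (−0.20 on the log2 scale, standard error 0.154, edgeR adjusted p = 0.468). In Mir483Pat-KO replicate 3 it ranked 3rd of the 10 libraries.

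Counted together, 2 of the 10 genes passed with a lower value in Mir483Pat-KO and 0 with a higher one, where 2.76% and 2.43% of all genes did. Groups did not overlap for 3 genes with a lower value and for 0 with a higher one, against 3.26% and 3.34% of all genes. No gene of the list passed with a fold change over 1.5, as 1.23% of all genes did. An unadjusted p under 0.05 was seen for 4 of the 10 with edgeR and for 22.2% of all genes, and DESeq2 passed 3 of the 10 with a lower value, beside 4.37% of all genes. The median log2 fold change of the 10 was −0.14, beside 0.0042 for all genes tested. No fitted decrease exceeded that of Slc37a4.

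The medians of marker lists of several cell types lay below 0, as the median of these genes did. The 12 hepatocyte markers were all below 0 with a median of −0.14, beside −0.14 for the 10 genes, and 1, the retinol carrier gene Rbp4, passed (−0.41, edgeR adjusted p = 0.0058). Their summed level ranged from 236256 to 264824 CPM in WT and from 212214 to 244312 CPM in Mir483Pat-KO. The 13 erythroid markers had a median of 0.23, and 2 of them, Hbb-bs and Tspo2, passed with a higher value. They summed to 16754 to 21469 CPM in WT and 19597 to 27406 CPM in Mir483Pat-KO. The part of cell composition in the values of Pcx and Slc37a4 was not tested, and no marker of either list was at 0. The 12 myeloid markers were split, with 7 below 0 and 5 above and a median of −0.13. C1qa and Clec4f passed with a lower value, and the summed level of the list overlapped between groups (2293 to 3280 CPM in WT and 2748 to 3176 CPM in Mir483Pat-KO). Of the 12 endothelial and mesenchymal markers 11 were below 0, with a median of −0.18 and summed levels of 709 to 1094 CPM in WT and 673 to 910 CPM in Mir483Pat-KO, and 4 of the 6 bile duct markers were below 0 with a median of −0.094. None of these 2 lists passed with edgeR (3 and 0 had an unadjusted p under 0.05).

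Across libraries, the genes did not vary as a block. Mir483Pat-KO replicate 3 was the highest of the 10 libraries for Pck1, G6pc and Ppp1r3c and the lowest for Slc37a4, Pygl and Ppp1r3b. Replicate 2 of the same group was the lowest for Pck1, G6pc, Fbp1, Pcx and Gys2, and WT replicate 5 the highest for Fbp1, Pcx, Gys2 and Pygl. Pck1 spread most, from −1.17 to 1.86 log2 units around its mean, whereas Pygl stayed between −0.17 and 0.15.

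**Figure D3:**
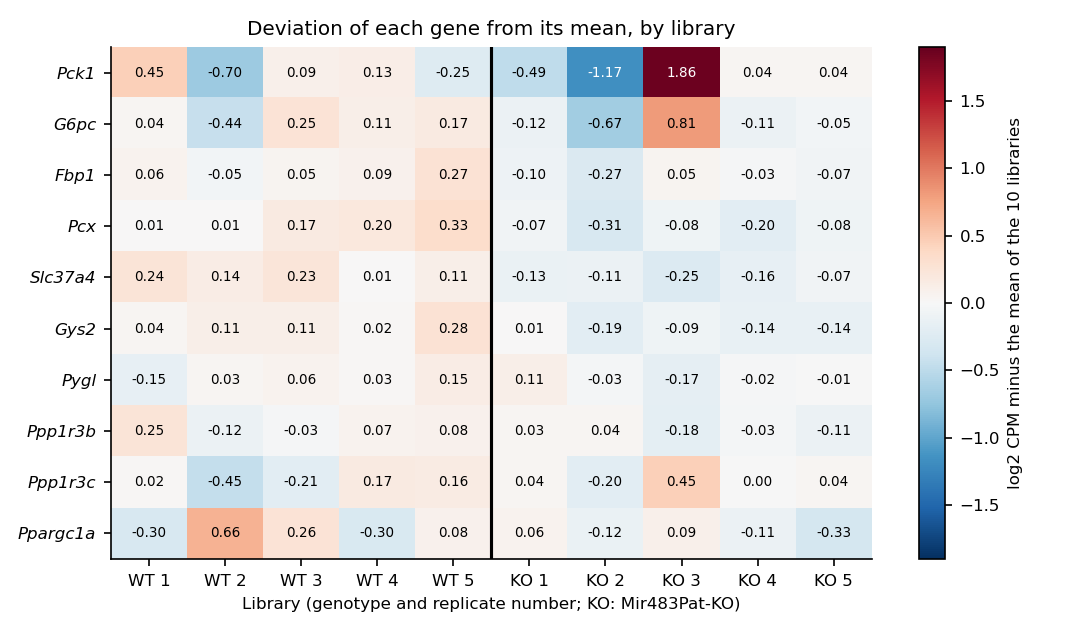
Deviation of each of the 10 genes (rows) from its mean over the 10 libraries (columns), in log2 CPM, with the value printed in each cell, blue for lower and red for higher. Pck1 reaches 1.86 and G6pc 0.81 in Mir483Pat-KO replicate 3, while Slc37a4 and Pcx are above 0 in every WT library and below 0 in every Mir483Pat-KO library.

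Replicate 3 was examined further because of Pck1, and the genes of this paragraph that are not on the list were chosen after their values were seen. Of 12550 genes, 4 were at least 2-fold higher in this library than in any other: Pck1, Gm43189, Trib3 and Igfbp1. Each of the other 9 libraries had 0 or 1 such gene. Igfbp1 (chr11:7197782-7202546, plus strand), which encodes a secreted IGF-binding protein that insulin represses in liver, had 2106 CPM in replicate 3 and 674 to 1013 CPM in the other libraries. Trib3 (chr2:152337422-152344032, minus strand), a pseudokinase gene induced by nutrient stress, had 14.9 CPM against at most 6.85 CPM elsewhere. Other genes known to respond to hormones or fasting in liver were mixed. Replicate 3 ranked 2nd of the 10 libraries for Tat and Nr4a1, 3rd for Pdk4, 4th for Sds and 10th, the lowest, for Per1. It was the highest library for the glycogen-targeting subunit gene Ppp1r3g (14.2 CPM against at most 12.1 CPM elsewhere).

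**Figure D4:**
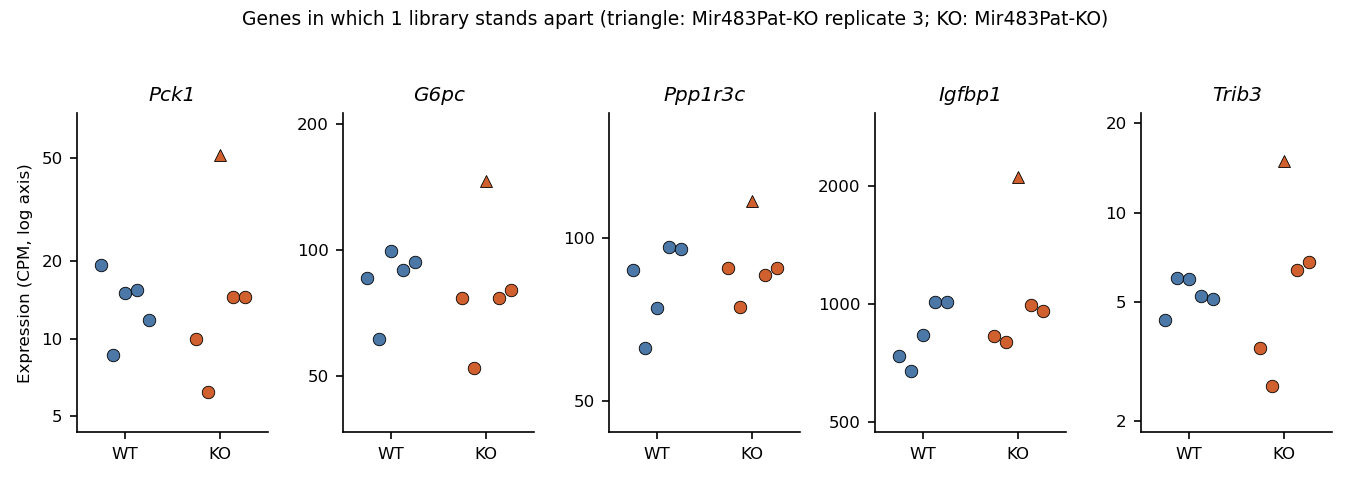
Expression (CPM, log axes that differ between genes) of Pck1, G6pc, Ppp1r3c, Igfbp1 and Trib3, with 1 point per library, WT in blue and Mir483Pat-KO (KO) in orange. Mir483Pat-KO replicate 3 (triangle) is highest for all 5 genes (51.5 CPM for Pck1, 2106 CPM for Igfbp1).

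The promoters of the genes that stood highest in replicate 3 are shown because Pck1 and G6pc are textbook examples of hormone-controlled promoters. Each stretch is the 200 bases before the start of transcription in RefSeq (GRCm38.p6), and capitals mark the core of the cAMP response element, TGACG or its reverse complement CGTCA. They lie at chr2:173152873-173153072 (plus), chr11:101367516-101367715 (plus) and chr19:36736605-36736804 (minus).
Pck1: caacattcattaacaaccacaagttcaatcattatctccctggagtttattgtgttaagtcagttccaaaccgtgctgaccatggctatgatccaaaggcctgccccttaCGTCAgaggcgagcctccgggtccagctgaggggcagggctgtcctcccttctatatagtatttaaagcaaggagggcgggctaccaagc
G6pc: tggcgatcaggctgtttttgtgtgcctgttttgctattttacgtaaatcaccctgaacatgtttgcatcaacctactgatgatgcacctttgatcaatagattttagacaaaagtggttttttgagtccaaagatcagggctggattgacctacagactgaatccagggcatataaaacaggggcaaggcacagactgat
Ppp1r3c: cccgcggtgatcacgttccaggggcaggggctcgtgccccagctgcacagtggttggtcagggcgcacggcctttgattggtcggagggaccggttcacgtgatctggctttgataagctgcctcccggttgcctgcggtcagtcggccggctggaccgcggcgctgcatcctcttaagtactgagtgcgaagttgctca
In Pck1 the core starts at position −90, on the opposite strand. RefSeq windows from 250 bases before to 50 bases after the start were found for 8 of the 10 genes (11 windows), and not for Gys2 and Ppp1r3b. On either strand, TGACG was present in windows of Pck1, Ppargc1a, Slc37a4 and Pygl, that is in 5 of the 11 windows, and in 20.8% of all 32851 windows. The Slc37a4 windows chr9:44396696-44396995 and chr9:44396849-44397148 overlap, so the site at −61 in the former is also the site at −214 in the latter. The full element TGACGTCA, the forkhead letters TGTTTAC and the glucocorticoid receptor letters TGTTCT were in 0 of the 11 windows and in 1.79%, 3.65% and 19% of all windows. Only these exact letters were searched, and only in these windows. Variant sites and sites further upstream were not looked for, so a count of 0 does not show that an element is absent.

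Further genes of the pathway were taken from lists of 103 genes. Of 25 other gluconeogenesis enzymes and carriers tested (of 26), 1 fell and 0 rose (2.76% and 2.43% over all genes), 6 had an unadjusted p under 0.05, a share near the 22.2% of all genes, and DESeq2 passed 2 with a lower value (4.37% of all genes). Gpd1, glycerol-3-phosphate dehydrogenase, which brings glycerol carbon into the pathway, averaged 175 ± 13.4 CPM in the 5 WT libraries and 138 ± 9.43 CPM in the 5 Mir483Pat-KO libraries, without overlap (−0.34 on the log2 scale, edgeR adjusted p = 0.0143). The enolase gene Eno1 (−0.27), the mitochondrial carrier gene Slc25a11 (−0.19) and the alanine aminotransferase gene Gpt (−0.43), next by p, did not pass. The fitted value was below 0 for 22 of these 25 genes (6924 of all 14098 genes tested) and the list median was −0.12. Like Pcx and Slc37a4, Gpd1 did not pass with scaling to the hepatocyte markers (−0.19, edgeR adjusted p = 0.112), with offsets for GC content and length (−0.24, edgeR adjusted p = 0.0720) or in the lower range alone (−0.22, edgeR adjusted p = 0.308).

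Of 24 other glycogen genes tested (of 28), 0 passed in either direction with edgeR, 6 had an unadjusted p under 0.05, again near the 22.2% of all genes, and the median was 0.05. The 4 with the smallest p were the lysosomal glucosidase gene Gaa (−0.30, edgeR adjusted p = 0.0547), the muscle phosphorylase gene Pygm (−0.51), the phosphatase subunit gene Ppp1cb (0.48) and the glycogen-targeting subunit gene Ppp1r3g (0.67). Ppp1r3g had 2.84 to 11.1 CPM in WT and 8.98 to 14.2 CPM in Mir483Pat-KO, with overlap, and DESeq2 passed 1 gene of this list with a lower value, near its 4.37% of all genes. With scaling to the hepatocyte markers, which passed 14% of all genes with a higher value, 4 genes of the list did so, Ppp1cb and Ppp1r3g among them (0.63 and 0.83), a share near that background.

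Of 17 genes of hepatic glycolysis, 0 passed in either direction with edgeR and 3 had an unadjusted p under 0.05, a share below the 22.2% of all genes, with a median of −0.04. The glucose transporter gene Slc2a1, which red cell precursors also express, had 145, 196, 197, 203 and 164 CPM in WT and 194, 213, 234, 254 and 277 CPM in Mir483Pat-KO. The groups overlapped, and Slc2a1 was at 0.37 on the log2 scale (edgeR adjusted p = 0.0523). It was at 0.13 in the lower range alone (edgeR adjusted p = 0.681), and it passed with offsets for GC content and length (0.43, edgeR adjusted p = 0.0216). Pfkfb1, which sets the level of a glycolysis activator in liver, was at −0.26, the pyruvate kinase gene Pkm at −0.23 and the liver phosphofructokinase gene Pfkl at −0.21, and none of these passed. DESeq2 passed 1 gene of the 17 with a higher value (3.95% of all genes), and scaling to the hepatocyte markers 2 (14% of all genes), both near the background.

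Of the 32 regulators of gluconeogenesis, 4 fell and 0 rose, beside 2.76% and 2.43% of all genes, and 16 had an unadjusted p under 0.05, beside 22.2%. DESeq2 passed 7 of them with a lower value and 0 with a higher one (4.37% and 3.95% of all genes). With offsets for GC content and length 1 of them passed with a lower value and 2 with a higher one (2.75% and 1.76% of all genes), and in the lower range alone 0 passed, where 0.138% and 0.0207% of all genes did. Per1, a clock gene that glucocorticoids induce, had 68.9 to 77.6 CPM in WT (median 72.7) and 45.8 to 63 CPM in Mir483Pat-KO (median 58.6), without overlap (−0.41, edgeR adjusted p = 0.0129). Per1 did not pass with those offsets (−0.28, edgeR adjusted p = 0.0644) or in the lower range (−0.25, edgeR adjusted p = 0.220). The hepatic transcription factor gene Foxa2 had 15.6 to 20.2 CPM in WT and 10.5 to 14.8 CPM in Mir483Pat-KO, also without overlap (−0.49, edgeR adjusted p = 0.0201). Foxa2 did not pass with scaling to the hepatocyte markers, with the offsets or in the lower range (−0.35, −0.38 and −0.38, edgeR adjusted p = 0.0526, 0.0995 and 0.239). Gcgr, the glucagon receptor gene, was at −0.33 with overlapping groups (edgeR adjusted p = 0.0491) and lost its call in 14 of 21 alternative fits, with values from −0.39 to −0.17 over the 21. Nr0b2, which encodes the repressor SHP, was at −1.68 (edgeR adjusted p = 0.0310), but with 4 to 35 counts per library and overlapping groups, and it lost its call in 10 of 20, with values from −1.95 to −1.38 over the 20. The median over the 32 regulators was −0.06. With scaling to the hepatocyte markers, 2 of them passed with a lower value and 6 with a higher one, beside 1.25% and 14% of all genes.

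**Figure D5:**
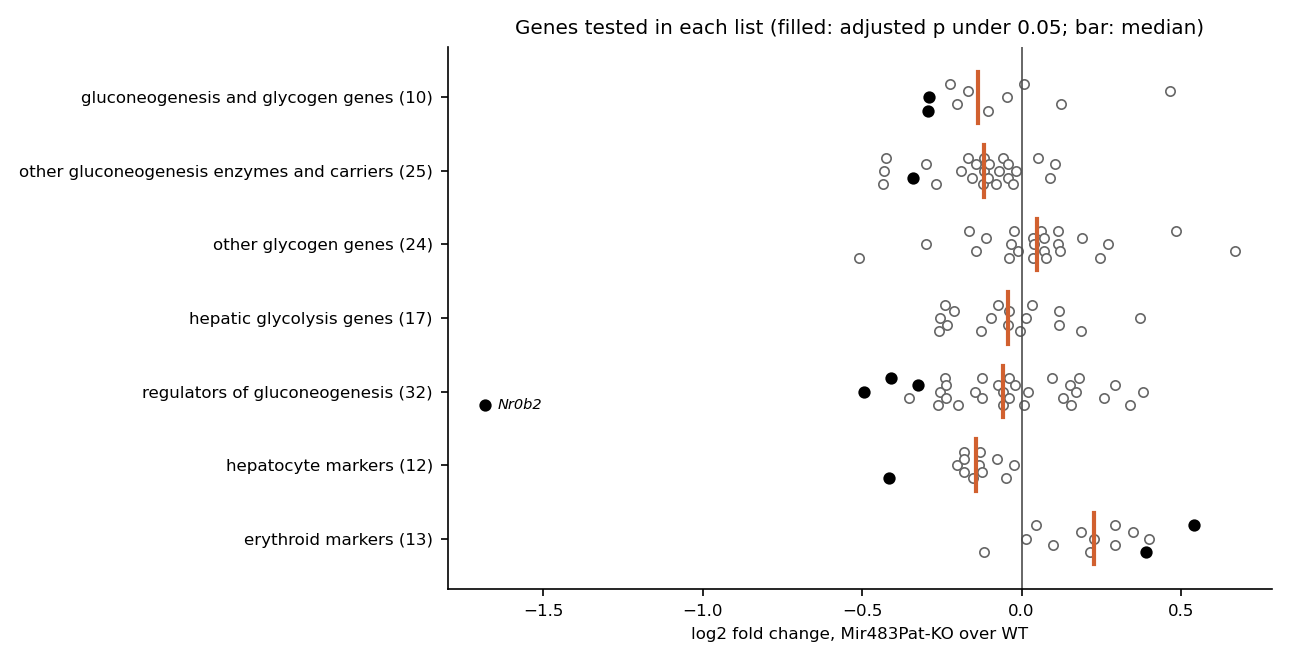
Log2 fold change of Mir483Pat-KO over WT for each gene tested (points) in the list of 10 genes, 4 lists of related genes and 2 marker lists, with the number of genes in brackets, filled where the adjusted p was under 0.05 and with the list median as an orange bar. The medians of the gluconeogenesis and glycogen genes and of the hepatocyte markers both lie at −0.14 and that of the erythroid markers at 0.23, and Nr0b2 (−1.68) lies furthest to the left.

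The 3 genes whose centred log2 CPM over the 10 libraries lay nearest to Pcx were Fcgrt, Fcna and Apoe (root-mean-square distances 0.0532, 0.0612 and 0.0626 log2 units). Those nearest to Slc37a4 were Slc25a20, Brd2 and Lima1 (0.0564, 0.0582 and 0.0701). Fcgrt (−0.36), Apoe (−0.33) and Brd2 (−0.23) passed in the same fit, and Fcna, Slc25a20 and Lima1 did not. Nearness to a gene that passed makes a difference of the same sign likely, so these values are a description.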

How the data were processed

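Liver polyA RNA of 10 female fetuses was measured. The authors made stranded libraries, sequenced paired ends on a NovaSeq, aligned with STAR to GRCm38 and deposited the counts for each Ensembl gene, not normalized. How the counting treated strand is not given in the sources used here. Of 55401 identifiers, 55141 matched a symbol. Groups came from the labels. Positions are from GENCODE M21 (GRCm38), and mature microRNAs and promoters from RefSeq (GRCm38.p6).

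The analysis used edgeR 4.0.16 in R 4.3.3: default filterByExpr, TMM, quasi-likelihood F-test without covariates, and Benjamini-Hochberg adjustment over 14098 genes. Log2 CPM used a prior count of 2. The procedure was tested on simulated data. Shares were compared by exact permutation over 252 arrangements, whose smallest p is 0.00794. The members, lists, thresholds and alternatives were chosen with earlier results of these data known. Named were all 10 members, Mir483, up to 4 genes of each list with the smallest p, and the 3 nearest profiles of each member that passed (average log2 CPM of at least 1). The genes of replicate 3 were added later. Items withheld for evaluation are not reported here and were left out of the lists.

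Alternatives were RLE scaling, scaling to hepatocyte markers, DESeq2 1.42.0, limma-voom (limma 3.58.1), a robust fit, a filter of 10 counts per library or none, a block for the replicate number, the range of identification numbers as a covariate, the lower range alone, GC content and length offsets, glmTreat, and each library left out. Same-numbered WT and Mir483Pat-KO libraries did not all deviate together (mean correlation across genes 0.0871, over 0.1 in 2 of 5 pairs, beside −0.022 for other pairs). Whether replicate numbers pair the libraries is not stated in the sources used here, and they were treated as unpaired. Within a group every pair of libraries differed by more than sampling noise.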

Additional observations from a re-analysis of the deposited data

Results flagged for a closer look

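Among 56 sets of 5 values, 2 held a library far from the others by Dixon's test, and chance gives about 1 in 20. The value of Pck1 in Mir483Pat-KO replicate 3 was 51.5 CPM, with the next library of the group at 14.5 CPM, a gap of 0.817 of the whole range. It was 1 of the 20 sets of the 10 gluconeogenesis and glycogen genes. The value of Pygm, the muscle glycogen phosphorylase gene, in Mir483Pat-KO replicate 1 was 4.76 CPM, with the next library at 3.41 CPM (a gap of 0.842 of the range). This Pygm value lies within the WT range of 4.35 to 5.99 CPM, whereas the Pck1 value lies above every WT library.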

How the results depend on the processing

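Over all genes tested, 731 passed. The count was 2152 with scaling to hepatocyte markers, 1127 with DESeq2, 1258 without a low-count filter, 1338 with the replicate block, 1189 with the identification number range as a covariate, 23 in its lower range alone, 4 with glmTreat against a fold change of 1.5, and 279 to 863 with 1 library left out. Of the 10 gluconeogenesis and glycogen genes, 2 passed with a lower value, and 0 with scaling to hepatocyte markers, in the lower range alone or with glmTreat, 1 with GC content and length offsets (Gys2, while Pcx and Slc37a4 lost their calls), 4 with the range as a covariate (Fbp1 and Gys2 added), 2 with the replicate block, and 1 to 3 with 1 library left out. None passed with a higher value in any of the 22 fits. The replicate block changed no call among the 10, and whether replicate numbers pair the libraries is not stated.

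Of 210 alternative values of the 10 genes, 178 kept direction and side of the threshold, 13 lost the call (10 for Pcx, 3 for Slc37a4), 5 gained one (4 for Gys2, 1 for Fbp1) and 14 changed sign, none of a gene that passed. Pck1 was at −0.074 with the range as a covariate, −0.85 in the lower range and −0.32 without Mir483Pat-KO replicate 3 (−0.32 to 0.68 with 1 library left out). G6pc was at −0.056 with limma-voom, −0.049 with the replicate block, −0.20 with the range as a covariate, −0.38 in the lower range, −0.022 with the GC content and length offsets, and −0.28 to 0.13 with 1 library left out, below 0 when WT replicate 1 or 2 or Mir483Pat-KO replicate 3 was left out. With scaling to hepatocyte markers Pygl was at 0.11 and Ppp1r3b at 0.045, and Pygl was at 0.045 in the lower range. Of 335 alternative values of 16 related genes, 32 lost a call, 32 gained one and 0 changed sign. The haemoglobin share differed by 0.166 percentage points in the lower range (exact p = 0.267) and by 0.466 to 0.663 with 1 library left out. The hepatocyte marker share differed by −0.523 points in the lower range (exact p = 0.4) and by −2.26 to −1.60 with 1 library left out, where 5 of 10 tests had an exact p over 0.05. The causes were not tested. Counts were lowest for Pck1 among the 10 genes (78 to 672 per library) and for Nr0b2 among the related genes named (4 to 35).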
